A study of Mus musculus with 4 samples.

Results

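Renal macrophages and other myeloid cells made up 560 of the 35589 barcodes that passed the quality filter (at least 500 genes, at most 50% of unique molecular identifiers, UMIs, from mitochondrial genes) in single-cell libraries of mouse renal cortex. A barcode was taken as a member when it held at least 5 UMIs of C1qa, C1qb, C1qc and Lyz2 together and at least 1 UMI of Tyrobp or Fcer1g. It could hold no more than 2 UMIs of the tubular transporters Slc34a1, Slc12a1 and Slc12a3. The members were thus chosen by the measured UMIs of these 9 genes, whose levels describe the selection and are not findings.

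Resident kidney macrophages lie between the tubules, take up dying cells and debris, degrade them in lysosomes, and produce the complement component C1q. Blood monocytes enter the kidney in a classical (Ly6C-high) and a non-classical, patrolling form, and dendritic cells present antigen on MHC class II. On stimulation, macrophages switch on immediate early genes and then chemokines and cytokines, and NF-kB is a factor long known to act on many of these promoters.

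The libraries compared the kidney at 2 ages and with or without Tfeb in the proximal tubule. Tfeb encodes a transcription factor of lysosomal and autophagy genes. All mice were male and carried floxed Tfeb alleles (Tfeb fl/fl). For the controls the labels name no Cre. The KAP animals (Tfeb fl/fl KAP) also carried Cre under the androgen-responsive promoter of Kap, a proximal tubule gene, so that the deletion was aimed at tubular cells. Whether Tfeb was intact in the myeloid cells was not tested. Mice were 6 weeks (young) or 24 months (aged) old. Values for the 4 conditions are always given in the order young control, young KAP, aged control, aged KAP. Each condition was 1 library of 10x Genomics 3′ sequencing from the perfused, enzymatically digested cortex of 2 or 3 pooled mice. With 1 library a condition there was no replicate, and no p-value was computed. Exact 95% intervals cover counting error only, not the spread between mice.

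The files held 16945, 12685, 8358 and 10097 barcodes with 194747936, 155327520, 125729484 and 135792884 UMIs in total. After the filter 12375, 9366, 6346 and 7502 barcodes were left, of which 140, 117, 137 and 166 were myeloid. The members' median UMI count was 5216, 4479, 7908 and 6983, so the aged cells were the more deeply read. Mitochondrial genes took a median of 3.30%, 1.77%, 1.79% and 1.51% of the members' UMIs, against 18.8%, 18.8%, 18.2% and 16.2% in all other barcodes. Between 27 and 57 barcodes were shared by any pair of libraries, and 0 of them were members in both.

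Myeloid cells were about 2 times as frequent in both aged libraries. They were 1.13% (0.953 to 1.33) of barcodes in young control, 1.25% (1.03 to 1.495) in young KAP, 2.16% (1.82 to 2.55) in aged control and 2.21% (1.89 to 2.57) in aged KAP. The intervals of the young and the aged libraries did not overlap, whereas those of the genotypes did at each age. Asking for 10 UMIs of the rule's genes in place of 5 gave 0.986%, 0.993%, 1.99% and 2.04%. Leaving out members that carried markers of other cell types gave 0.776%, 0.908%, 1.15% and 1.29%, a smaller difference between the ages. Lymphocytes numbered 67, 105, 100 and 72 barcodes, proximal tubule cells 4653, 3860, 3072 and 2704. A larger number of myeloid cells and a smaller number of the other cells recovered cannot be told apart from such shares, and the part of the greater depth in the aged libraries was not tested.

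The members carried the marker genes in every library. Of the genes given here only Csf1r lies outside the selection rule, so the levels of C1qa and Tyrobp describe the selection. C1qa stood at 1890, 1500, 2875 and 2199 CPM (UMIs of the gene per 1000000 UMIs, summed over the members of a library), against 2.52 in all other barcodes. Csf1r, the receptor for the macrophage growth factor CSF1, stood at 330, 315, 582 and 431 CPM against 4.03. Tyrobp, a signalling adapter of myeloid receptors, stood at 1769, 2106, 2703 and 2389 CPM against 8.35. Just inside the threshold, 18 barcodes had exactly 5 UMIs of the rule's genes, with 210 UMIs of Tyrobp and 12 of Csf1r in all. Just outside it, 19 had 4 UMIs, with 180 UMIs of Tyrobp and 10 of Csf1r. Both sets also had to hold at least 1 UMI of Tyrobp or Fcer1g. Another 13, 10, 27 and 21 barcodes were kept out by the tubular genes alone.

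Clustering on 2000 variable genes split the members into 9 clusters, of which 6 could be named from marker lists. Since the clusters were made from the same expression values, their genes describe them and are no test. Clusters 0 (147 cells) and 8 (75 cells) were macrophage-like, with C1qa UMIs in 99.3% and 98.7% of cells. Cluster 5 (97 cells) was non-classical monocyte-like, led after haemoglobin genes by Ace, Eno3 and Itgal. Cluster 1 (65 cells) was classical monocyte-like (Ly6c2, Chil3, Vcan, Plac8), cluster 6 (49 cells) was of the type 2 conventional dendritic cell (cDC2-like; Cd209a, Clec10a) and cluster 3 (45 cells) was neutrophil-like (S100a8, S100a9, Retnlg). Cluster 2 (33 cells) carried Xcr1, a receptor of cross-presenting dendritic cells, together with cell cycle genes and stayed unnamed. Clusters 4 (41 cells, led by endothelial genes such as Kdr and Emcn) and 7 (8 cells, led by collecting duct genes such as Aqp2) held markers of other renal cells, and Scrublet, a doublet caller, marked 24 and 2 of their cells. Scrublet also marked 16, 10, 14 and 13 cells of clusters 0, 2, 3 and 6, and 2, 1 and 0 of clusters 1, 5 and 8. By library it marked 21, 19, 11 and 31 members, which were kept.

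**Figure D1:**
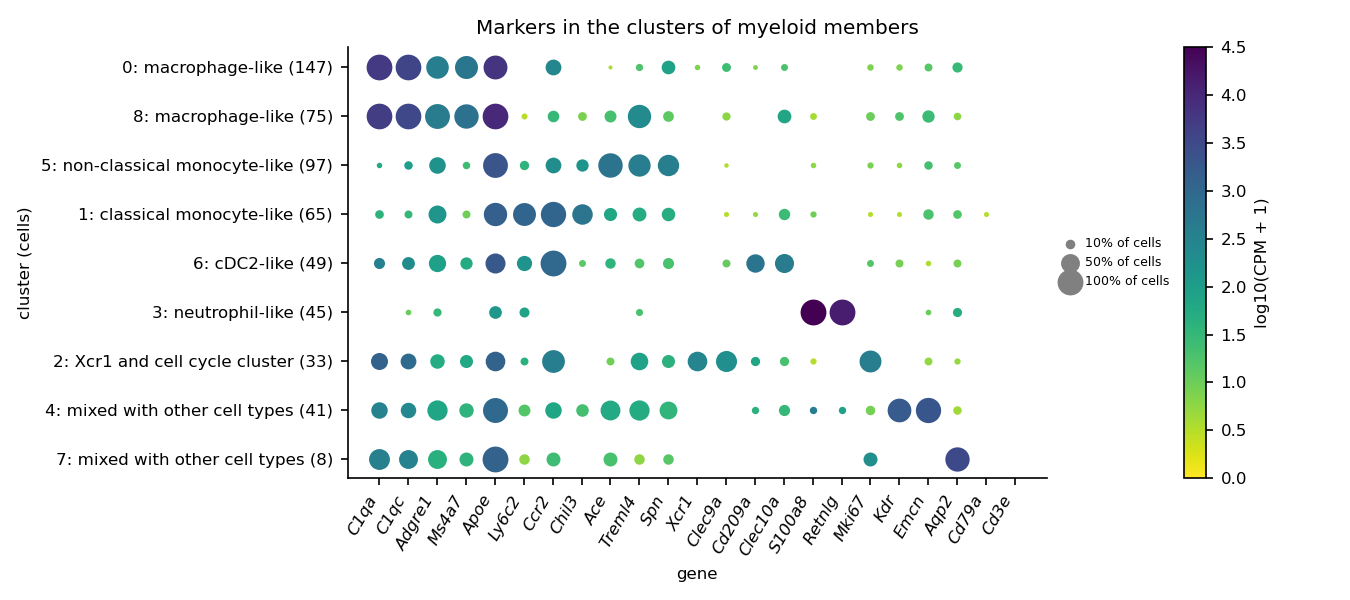
Marker genes (x axis) in the 9 clusters of myeloid members (y axis, with cell numbers). Dot area is the percentage of cells with at least 1 UMI and colour is log10 of CPM plus 1 over the summed UMIs of the cluster; C1qa is in 99.3% and 98.7% of cells of clusters 0 and 8, in 39.4%, 36.6% and 62.5% of clusters 2, 4 and 7 and in at most 14.3% of the others, while Kdr and Emcn mark cluster 4.

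By class, the largest was the macrophage-like one, at 0.509% (0.391 to 0.651), 0.384% (0.269 to 0.532), 0.993% (0.764 to 1.27) and 0.7998% (0.611 to 1.03) of barcodes. Non-classical monocyte-like cells were 0.0808% (0.0388 to 0.149), 0.203% (0.122 to 0.317), 0.410% (0.268 to 0.600) and 0.560% (0.404 to 0.756), lowest in young control and highest in aged KAP. The haemoglobin UMIs that lead this cluster came from 1 cell of aged KAP, which held all 1283 of them, and without it the share in aged KAP was 0.547% (0.392 to 0.741). Both classes were larger in the aged library of each genotype. Neutrophil-like cells were 0.278% (0.181 to 0.406) of barcodes in young KAP, against 0.0727% (0.0333 to 0.138), 0.0630% (0.0172 to 0.161) and 0.0800% (0.0294 to 0.174) in young control, aged control and aged KAP. The young KAP library thus stood alone, with 26 of the 45 neutrophil-like cells. The cDC2-like cells were few, 14, 17, 13 and 5.

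**Figure D2:**
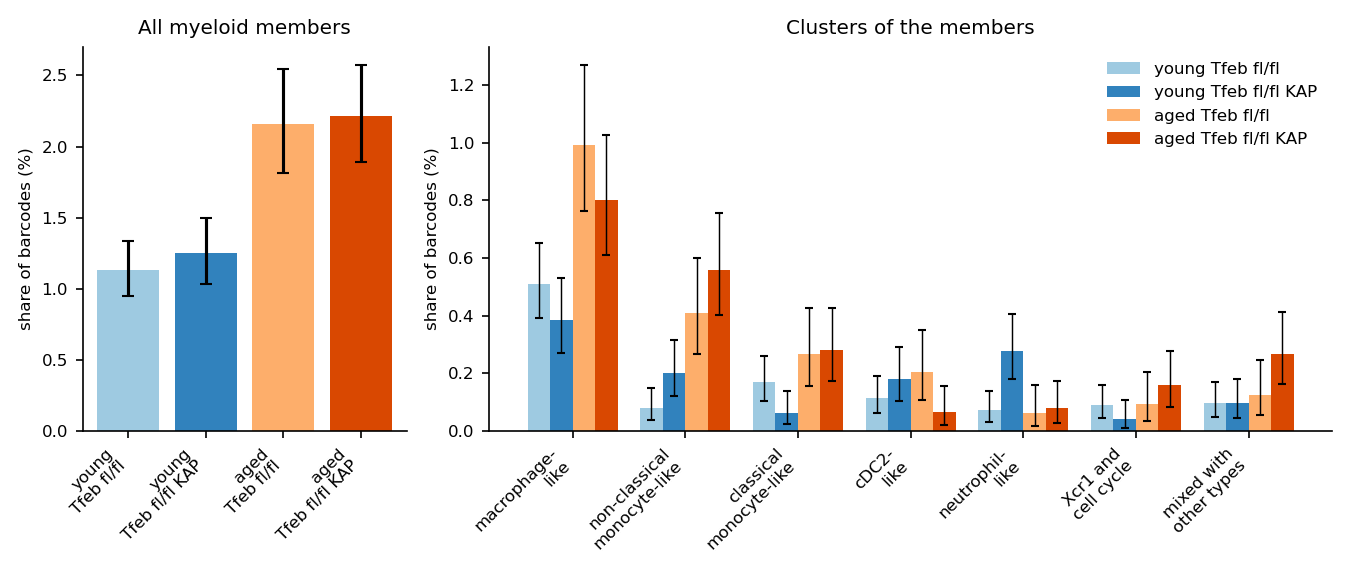
Share of barcodes past the quality filter (y axis, percent) taken by all myeloid members (left) and by each class of clusters (right) in the 4 libraries, with exact 95% intervals as error bars. Members took 1.13% and 1.25% in the young libraries and 2.16% and 2.21% in the aged ones, and neutrophil-like cells stood out in young KAP.

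Over all members, more genes differed between the ages than between the genotypes. A gene was called when its CPM differed at least 2-fold, among the 3167 genes with a mean of 50 CPM or more. Between aged and young control mice 404 genes (12.8%) were called, and between aged and young KAP 228 (7.20%). Between the genotypes 77 (2.43%) were called in the young and 196 (6.19%) in the aged libraries. With age 152 genes (4.80%) were called the same way in both genotypes, and 19 (0.600%) were called the same way between genotypes at both ages. The age comparisons shared no library with each other, nor did the genotype comparisons, but each age comparison shared libraries with each genotype comparison.

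The genes furthest above in both aged libraries included genes of tissue macrophages. Nr1h3, which encodes the oxysterol receptor LXR alpha, stood at 5.95, 5.99, 138 and 78.0 CPM. Fcna, a ficolin, was at 0, 0, 177 and 55.5 CPM and Cd5l, an LXR target and secreted protein of tissue macrophages, at 0, 0, 462 and 44.3 CPM. Neither was seen in the young members. In aged control 460 of the 645 Cd5l UMIs came from 6 very deep cells described at the end. Without them Fcna was at 104 CPM and Cd5l at 162 CPM over the aged control members, still above aged KAP, but 108 of the 185 Cd5l UMIs left came from 1 cell outside the macrophage-like class. Igf1, a growth factor made by macrophages, stood at 24.8, 22.8, 209 and 119 CPM. Acp5, Vcam1, Slc40a1, Clec4n, Cd38, Wfdc17, Pltp and Plin2 completed the 12. Among the genes below in both aged libraries, 36 of 80 were far more abundant in the other barcodes than in the members, such as Umod, Aqp2 and Calb1 of the distal nephron, and cannot be told apart from RNA of other cells. Of the 12 others furthest below, Npnt, Ccn1, Cryab, G0s2, Pmepa1, Gm43305 and Sdc4 were also more abundant in the other barcodes, by less. Npnt, for example, was at 222 CPM there against 70.3 in the pooled members. Cxcl1, Hspa1a, Egr3, Serpinh1 and Ccl4 were more abundant in the members, Serpinh1 barely so. Cxcl1, a neutrophil chemokine, stood at 87.2, 260, 2.15 and 10.5 CPM. Without the clusters that held markers of other renal cells, 48 genes in place of 80 were called lower in both genotypes. Those called higher were 68 in place of 72.

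Between genotypes, several of the genes called at both ages are known from other renal cells. Myl9, a contractile protein of smooth muscle and mesangial cells, stood at 66.4, 212, 2.15 and 124 CPM. Serpine2 stood at 171, 416, 5.73 and 277 CPM and Bgn, a matrix proteoglycan, at 78.3, 181, 6.44 and 146 CPM. The mixed clusters 4 and 7 held 326067, 286745, 119354 and 362111 of the members' 1009018, 835112, 1397369 and 1423592 UMIs, least in aged control. Without these clusters, 57 genes in place of 196 were called between the aged genotypes, and 11 in place of 19 at both ages. In the young genotype comparison the genes furthest above were led by those of neutrophils, with S100a8 at 777, 7285, 703 and 888 CPM and Retnlg at 186, 1279, 65.1 and 114 CPM. The genes furthest below were led by Gm42418, a transcript that overlaps ribosomal RNA sequence.

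The macrophage-like class was then compared on its own, because the make-up of the members differed between libraries. It held 63, 36, 63 and 60 cells. In aged control, 6 cells of 26479 to 67409 UMIs held 33.9% of the class's UMIs in that library, while the next cell had 20422 and the deepest cells of the other libraries had 10625, 13466 and 17568. These 6 were left out of the gene values that follow, a choice made after seeing the data, and are described at the end. The remaining 63, 36, 57 and 60 cells held 300545, 202041, 498773 and 488075 UMIs, with medians of 4666, 4619, 7898 and 8565 per cell. Different clusters held most of the class at each age. All young cells lay in cluster 0, while of the aged cells 27 and 21 lay in cluster 0 and 30 and 39 in cluster 8.

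Among the 12 macrophage markers, which served to name the class and so describe it, Adgre1, which encodes the F4/80 antigen, stood at 446, 376, 423 and 359 CPM, and Csf1r at 529, 559, 646 and 633 CPM. C1qa, a gene of the selection rule, stood at 5770, 5484, 5720 and 5429 CPM. The summed level of the 12 was 30032, 26212, 29326 and 30725 CPM, and Mertk was called higher and Cd72 lower in both age comparisons.

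Markers of other cells in the class were few but not level across libraries. The 8 neutrophil genes summed to 33.3, 49.5, 52.1 and 45.1 CPM and the 10 T or NK cell genes to 0, 9.90, 28.1 and 4.10 CPM, and the 8 B or plasma cell genes to 313, 292, 124 and 166 CPM. Of these, the defining Cd79a and Ms4a1 were at 0 throughout, while Ighm gave 243, 188, 94.2 and 92.2 CPM and was called lower with age in both genotypes. The 9 non-classical monocyte genes summed to 339, 361, 844 and 811 CPM, mostly Nr4a1 and Treml4, with the defining Ace at 0, 0, 24.1 and 14.3 CPM. Both aged libraries were the higher ones here. The 8 endothelial genes summed to 9.98, 39.6, 142 and 129 CPM, of which Pecam1 gave 0, 9.90, 84.2 and 82.0 CPM and Cdh5 0, 0, 4.01 and 4.10 CPM. The 8 cDC2 genes summed to 742, 792, 221 and 195 CPM, of which Mgl2 gave 682, 663, 172 and 102 CPM. The 8 distal nephron genes summed to 479, 134, 92.2 and 32.8 CPM, with Umod at 153, 59.4, 38.1 and 22.5 CPM, highest in young control. The 10 proximal tubule genes summed to 1068, 421, 886 and 283 CPM, lower in both KAP libraries. The part of these cells in the differences below was not tested.

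With age, 322 of 2667 genes (12.1%) were called higher and 114 (4.27%) lower in control mice. In KAP mice 322 (12.1%) were called higher and 172 (6.45%) lower. Of these, 141 (5.29%) were higher and 83 (3.11%) lower in both genotypes. The median log2 ratio of all 2667 genes was 0.26 in control mice and 0.22 in KAP mice, and the values below are read against it. With these medians subtracted, 202 genes were higher and 171 lower in control mice and 203 higher and 249 lower in KAP mice, so that the higher share of the calls went from 73.9% to 54.2% and from 65.2% to 44.9%. In both genotypes 96 were then higher and 114 lower. Among genes of 200 CPM or more, 26 were higher and 43 lower in both, and in cluster 0 alone, the one macrophage-like cluster with cells of every library, 31 were higher and 28 lower in both at the floor of 50 CPM.

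**Figure D3:**
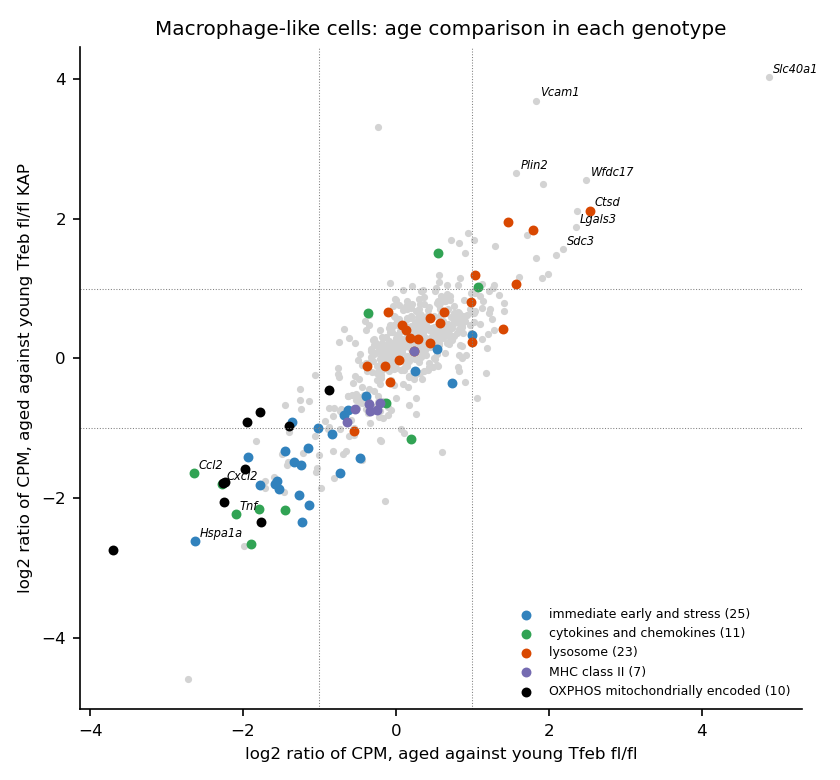
Log2 ratio of CPM with age in control mice (x axis) and in KAP mice (y axis) for genes of macrophage-like cells with a mean of 200 CPM or more and a finite ratio in both (grey), with 5 gene lists in colour and dotted lines at 2-fold. Slc40a1 lies at 4.88 and 4.03, and the chemokine and immediate early genes lie in the lower left corner, below in both aged libraries.

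Slc40a1, which encodes ferroportin, the iron exporter of cells, ranked first by the smaller of its gains in the 2 genotypes, among genes of 200 CPM or more on average. It stood at 23.3, 44.5, 686 and 727 CPM, against 23.9 in all barcodes outside the myeloid members. Both aged libraries were high and both young ones near that level, with log2 ratios of 4.88 (3.82 to 6.21) and 4.03 (3.09 to 5.17). When each cell was thinned to 2000 UMIs (5, 0, 0 and 6 shallower cells left out), 3.4%, 2.8%, 38.6% and 48.1% of cells had a Slc40a1 UMI, against 4.8%, 8.3%, 47.4% and 63.3% unthinned. In proximal tubule cells, thinned alike from medians of 15697, 14523, 20724 and 17207 UMIs, the shares were 4.0%, 2.6%, 4.2% and 4.4%, so the young macrophage-like cells did not stand above the tubule cells beyond counting error. Acp5, the tartrate-resistant acid phosphatase of lysosomes, stood at 0, 34.6, 439 and 359 CPM. Its level in aged control was 44.0 times what 3 UMIs in the young control library would give, and the exact interval of the log2 ratio began at 5.15. The ratio in KAP mice was 3.37 (2.30 to 4.71).

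Vcam1, an adhesion molecule for leukocytes, was lowest in young KAP. It stood at 256, 89.1, 916 and 1151 CPM, with log2 ratios of 1.84 (1.49 to 2.21) and 3.69 (3.02 to 4.46) with age. Lrp1, a scavenger receptor for apoptotic cells and lipoproteins, stood at 53.2, 14.8, 289 and 381 CPM, with ratios of 2.44 (1.69 to 3.28) and 4.68 (3.11 to 6.97). Both genes were thus higher in the aged library of each genotype over the whole class. In cluster 0 alone Vcam1 stood at 256, 89.1, 318 and 9.33 CPM, a ratio of -3.26 in KAP mice. Of the 17 phagocytic receptor genes above 50 CPM, 5 were called higher in both (Axl, Cd300a, Lrp1, Mertk and Scarb1) and 0 lower. Over all genes 5.29% were called higher and 3.11% lower in both. The list's median was 0.71 and 0.78. Mertk, a receptor tyrosine kinase for the engulfment of apoptotic cells, stood at 9.98, 24.7, 170 and 227 CPM.

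Of 38 lysosomal genes at the floor, 24 (63.2%) and 25 (65.8%) were above the median ratio of all genes with age. Ratios above 0 were found for 32 and 27, or 84.2% and 71.1%, against 67.6% and 65.0% of all genes. In both genotypes 8 were called higher (Acp2, Acp5, Ctsb, Ctsd, Gm2a, Grn, Pla2g15 and Psap), against 5.29% of all genes. With the median of all genes subtracted, 5 of these 8 were past 2-fold in both, without Gm2a, Pla2g15 and Psap. The list's median was 0.45 and 0.46, and its summed level 15535, 15828, 24512 and 23925 CPM. Ctsb, the cysteine protease cathepsin B, stood at 898, 995, 3128 and 3542 CPM, with ratios of 1.80 (1.61 to 1.99) and 1.83 (1.62 to 2.05). Ctsd, the aspartic protease cathepsin D, stood at 96.5, 134, 561 and 580 CPM, with ratios of 2.54 (1.99 to 3.15) and 2.12 (1.55 to 2.74). With the 6 deepest cells its ratio in control mice was 3.51. Psap, the precursor of the saposins, stood at 1264, 1673, 3749 and 3483 CPM. Over both clusters the 4 libraries formed 2 levels by age for these proteases and activators. In cluster 0 alone the ratios of Ctsb were -0.15 and -0.98, and those in KAP mice were -1.26 for Ctsd and -0.16 for Psap. Ctsd and Psap in control mice were not among the ratios that changed sign. The 15 subunits of the vacuolar proton pump (V-ATPase) at the floor had a median of 0.37 in each genotype.

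Genes of lipid handling were higher with age in part. Of 16 lipid-associated macrophage genes, 5 were called higher in both genotypes (Ctsb, Ctsd, Fabp5, Lgals3 and Plin2) and 1 lower (Spp1, abundant in tubule cells), with list medians of 1.08 and 0.68. The shares over all genes were 5.29% higher and 3.11% lower. Lgals3, or galectin-3, stood at 243, 371, 1241 and 1367 CPM, with ratios of 2.35 (2.00 to 2.72) and 1.88 (1.53 to 2.24). Plin2, a coat protein of lipid droplets, stood at 113, 98.99, 337 and 623 CPM, highest in aged KAP. Trem2 was scarce, at 36.6, 29.7, 94.2 and 49.2 CPM, and Gpnmb was at 0, 0, 4.01 and 4.10 CPM, within 2 UMIs of 0 in every library. Among 11 cholesterol genes, Abcg1, Nr1h3, Pltp and Scarb1 were called higher in both, again against 5.29% of all genes, with list medians of 0.81 and 0.70. Apoe, which encodes apolipoprotein E, stood at 8312, 6796, 9199 and 11037 CPM and was not called.

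Wfdc17, a secreted protein of activated macrophages, stood at 502, 599, 2823 and 3510 CPM. Its log2 ratio with age was 2.49 (2.25 to 2.74) and 2.55 (2.28 to 2.83), and 3.29 in control mice with the 6 deepest cells. Cfp, the complement regulator properdin, stood at 19.96, 19.8, 241 and 242 CPM, with ratios of 3.59 (2.43 to 5.07) and 3.61 (2.22 to 5.51). In both genes the aged libraries were high and the young ones low. The complement list itself, dominated by C1q, had medians of -0.13 and -0.16.

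Chemokines and cytokines were lower in both aged libraries. Of the 18 at the floor, 9 were called lower in both genotypes (Ccl2, Ccl3, Ccl4, Ccl12, Cxcl1, Cxcl2, Cxcl9, Cxcl10 and Tnf) and 2 higher (Il18 and Tgfb1, the latter not with the median of all genes subtracted). Over all genes 3.11% were called lower and 5.29% higher in both. The list's median was -1.35 and -1.72, and its summed level 28498, 29133, 11103 and 8118 CPM. Ccl4, a chemokine that attracts monocytes and T cells, stood at 12351, 14091, 3320 and 2239 CPM, with ratios of -1.90 (-1.98 to -1.81) and -2.65 (-2.76 to -2.55). Ccl3, a related chemokine, stood at 4898, 5192, 1415 and 1160 CPM, with ratios of -1.79 (-1.92 to -1.66) and -2.16 (-2.31 to -2.01). Tnf stood at 386, 470, 90.2 and 100.4 CPM, with ratios of -2.10 (-2.63 to -1.59) and -2.23 (-2.76 to -1.72). For these 3 genes each aged library was below each young one. The size moved with the processing. Averaged over cells the ratios in control mice were -1.09 for Ccl3 and -1.28 for Ccl4, and without the cells marked by Scrublet those in KAP mice were -3.17 and -3.75. In cluster 0 alone Ccl3 and Ccl4 were lower with age by less than 2-fold in both genotypes, at levels given below. After thinning to 2000 UMIs, 82.8%, 83.3%, 49.1% and 48.1% of cells had a Ccl3 UMI, against 84.1%, 91.7%, 70.2% and 60% unthinned and at most 0.4% of thinned proximal tubule cells. Il1b did not share the pattern, at 2589, 2989, 2967 and 1342 CPM, low only in aged KAP among these 4 libraries.

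Immediate early and stress genes were lower with age too. Of 29 at the floor, 25 and 27 had ratios below 0, and 18 were called lower in both genotypes. Among all 2667 genes 865 and 933 were below 0, and 3.11% were called lower in both. The list's median was -1.17 and -1.49, with summed levels of 49510, 47758, 24614 and 20896 CPM. Fos, a subunit of the AP-1 transcription factor, stood at 6688, 6489, 2667 and 2311 CPM, with ratios of -1.33 (-1.43 to -1.23) and -1.49 (-1.61 to -1.37). Egr1, a zinc finger factor induced within minutes, stood at 3470, 3658, 1201 and 1004 CPM, with ratios of -1.53 (-1.68 to -1.38) and -1.87 (-2.03 to -1.70). Hspa1a, the inducible heat shock protein 70, stood at 346, 539, 56.1 and 88.1 CPM. In each, the young libraries were high and the aged ones low. The same list summed to 5967, 6205, 6576 and 5203 CPM in proximal tubule cells and to 25499, 28086, 22495 and 12304 CPM in lymphocytes. In classical and non-classical monocyte-like cells it stood at 15136, 10942, 15105 and 16266 CPM and at 18033, 17646, 16276 and 18054 CPM. The list median with age was 0.14 and -0.33 in proximal tubule cells, -0.08 and -1.30 in lymphocytes, -0.01 and 0.78 in classical monocyte-like cells and -0.23 and -1.07 in cDC2-like cells. In KAP mice it was thus below -1 in lymphocytes and cDC2-like cells as well, and in control mice in none of these 4.

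**Figure D4:**
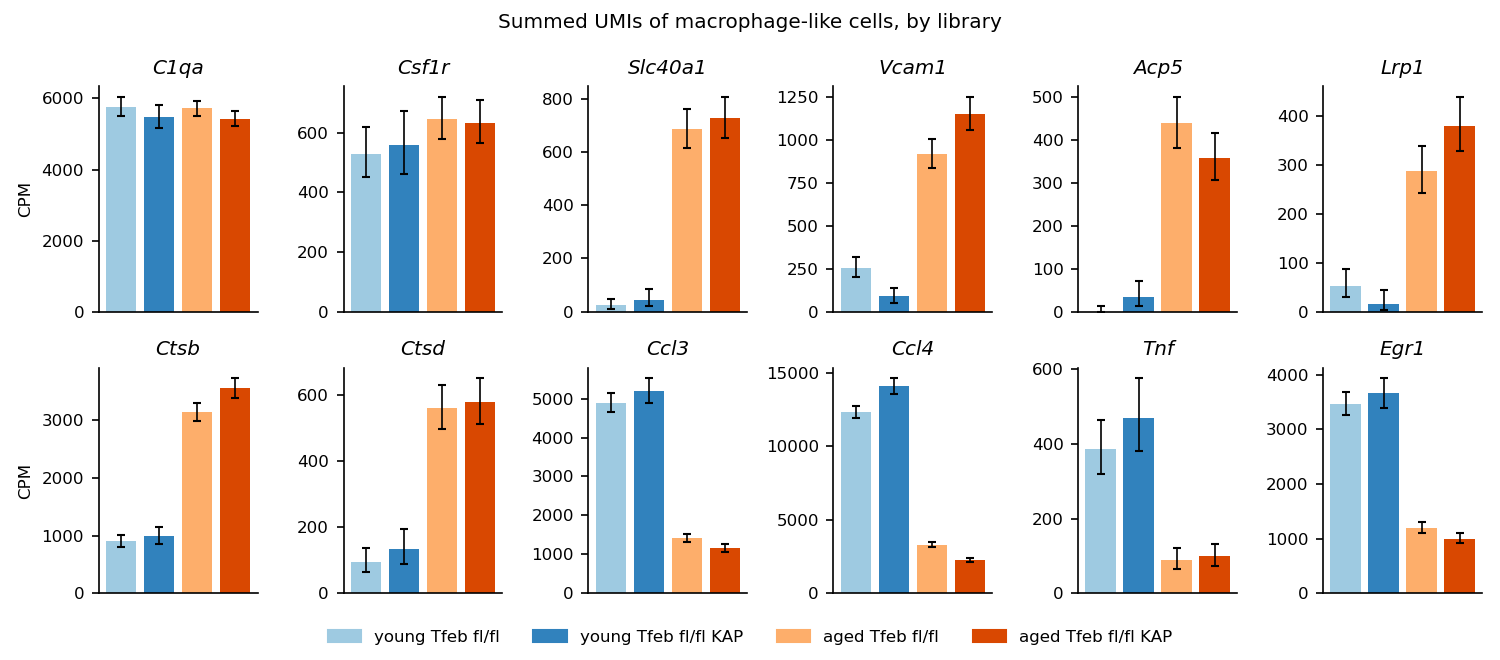
CPM of 12 genes over the summed UMIs of macrophage-like cells in the 4 libraries, without the 6 deepest cells, with exact 95% Poisson intervals (counting error only) as error bars. C1qa and Csf1r are near level, Slc40a1, Vcam1, Acp5, Lrp1, Ctsb and Ctsd are higher in both aged libraries, and Ccl3, Ccl4, Tnf and Egr1 are lower in both.

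The promoters of these lower genes were searched for the NF-kB consensus motif. Of the 27 genes of both lists that were called lower in both genotypes, 22 had a RefSeq promoter (250 bases before to 50 after the start site, build GRCm38.p6). The motif, on either strand, was present in 9 of the 22 (40.9%): Fos, Cxcl2, Nfkbia, Fosb, Hspa1a, Egr2, Cxcl10, Cxcl1 and Hspa1b. It was present in 9.55% of the 27025 genes with a promoter. Genes of these lists that were not called lower were not counted apart, and NF-kB is known to act on many such promoters. These shares therefore do not bear on the difference with age. A match is a description of the sequence and not a bound site. The 4 most abundant genes with a match are shown as 60-base stretches, with the matching bases in capitals. They lie at chr12:85473651-85473710 (Fos, plus strand), chr5:90903777-90903836 (Cxcl2, plus strand), chr12:55492642-55492701 (Nfkbia, minus strand) and chr7:19310199-19310258 (Fosb, minus strand), with the match starting at -214, -97, -29 and -188 from the start site.
Fos: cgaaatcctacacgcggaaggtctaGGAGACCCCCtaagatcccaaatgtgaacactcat
Cxcl2: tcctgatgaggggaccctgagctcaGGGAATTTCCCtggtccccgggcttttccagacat
Nfkbia: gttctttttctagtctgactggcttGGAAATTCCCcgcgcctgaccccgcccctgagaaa
Fosb: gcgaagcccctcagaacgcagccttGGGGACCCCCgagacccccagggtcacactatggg
Nfkbia, the inhibitor that NF-kB itself induces, stood at 2339, 1925, 852 and 766 CPM. Cxcl2, a neutrophil chemokine, stood at 4096, 3267, 848 and 940 CPM, and Fosb at 1131, 1074, 377 and 309 CPM. All 3 were high in the young and low in the aged libraries.

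Of 8 MHC class II genes at the floor, 6 had ratios with age below 0 in each genotype, but none of these was called. H2-Eb1 stood at 13013, 13304, 8322 and 7036 CPM, with ratios of -0.64 (-0.71 to -0.58) and -0.92 (-0.99 to -0.85). Cd74, the invariant chain that guides class II through the cell, stood at 34125, 37453, 23556 and 22542 CPM, with ratios of -0.53 (-0.57 to -0.50) and -0.73 (-0.77 to -0.69). The one gene called was Ciita, the class II transactivator, higher in control mice at 1.04. The list's medians were -0.30 and -0.69 but 0.30 and 0.15 in cluster 0 alone. The summed level was 73676, 78880, 53630 and 47724 CPM.

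Transcripts of the mitochondrial genome were lower in the aged cells. Of 11 genes at the floor, 11 were below 0 in each genotype and 7 were called lower in both, with medians of -1.94 and -1.59. The share called lower in both was 3.11% over all genes. The gene mt-Nd2, a subunit of complex I, stood at 2522, 1519, 194 and 227 CPM in the class. The summed level was 73746, 52628, 22104 and 25351 CPM. Per cell, mitochondrial genes took a median of 4.29%, 2.59%, 2.14% and 2.28% of UMIs, with the 6 deepest cells included. The ages thus lay closer per cell than in the sums in KAP mice. These genes are far more abundant in tubule cells, where the sum was 251965, 234748, 237744 and 231422 CPM and the medians were 0.01 and 0.05. In lymphocytes the sum was 52565, 35510, 29274 and 32991 CPM. The 73 nuclear genes of oxidative phosphorylation had medians of 0.03 and 0.41. The part of RNA from tubule cells in the mitochondrial values was not tested.

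List medians were mostly nearer to 0 when cluster 0 alone was compared across ages. In its 63, 36, 27 and 21 cells the medians with age were -0.28 and -0.26 for immediate early genes, -0.47 and -0.61 for chemokines and cytokines, 0.03 and -0.11 for lysosomal genes, and 0.30 and 0.15 for MHC class II. For cholesterol genes they were -0.07 and -0.77, below 0 in place of above. Ccl3 stood at 4898, 5192, 3908 and 4441 CPM in these cells and Ccl4 at 12351, 14091, 7969 and 8070 CPM. Slc40a1 was at 23.3, 44.5, 0 and 9.33 CPM. The mitochondrial genes remained lower, with medians of -1.74 and -0.91. The clusters were built from these same genes, so the aged cells of cluster 0 were grouped with the young ones by them.

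Cluster 8 carried the high values. Its 30 cells of aged control (without the 6 deepest) and its 39 cells of aged KAP held Slc40a1 UMIs in 27 and 37 cells, Acp5 in 30 and 35, and Vcam1 in 27 and 38. Ctsb stood at 4197 and 4398 CPM there, against 807 and 504 in the aged cells of cluster 0. Ccl3 stood at 267 and 236 CPM and Ccl4 at 1177 and 599 CPM, below the aged cells of cluster 0. C1qa was at 5829 and 5448 CPM, close to cluster 0 at 5484 and 5365. Fcna was found in 21 cells of each library. Within the aged libraries, Slc40a1 and Ctsb were thus higher and Ccl3 lower in cluster 8 than in cluster 0, which describes the clusters, since these genes took part in making them.

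**Figure D5:**
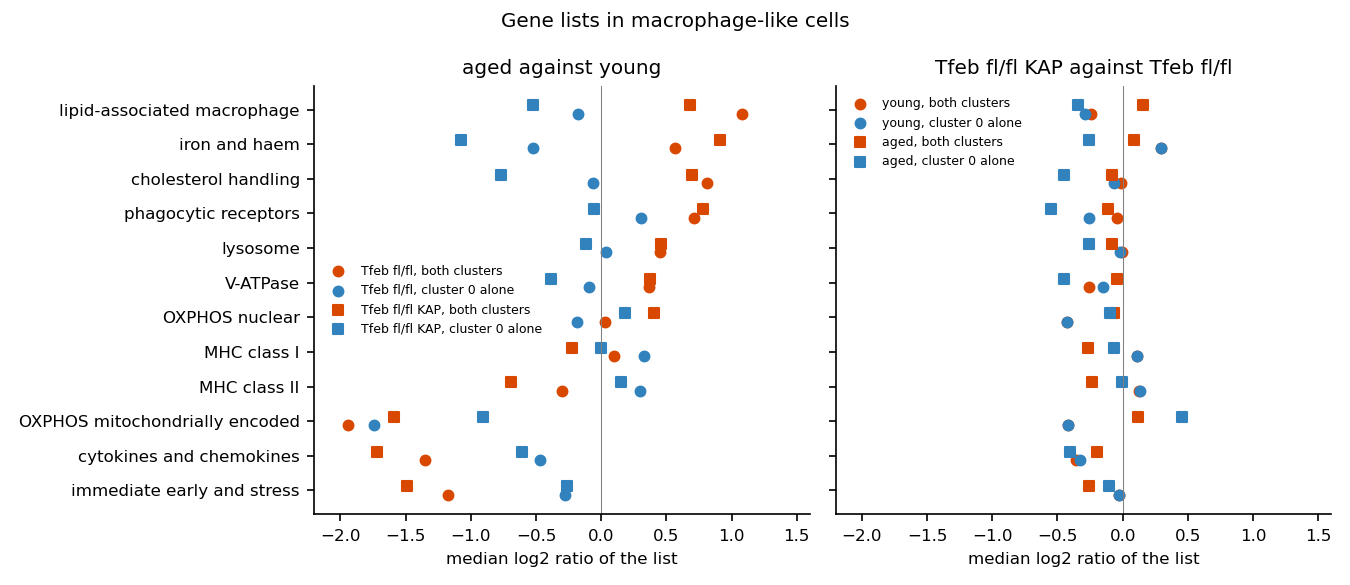
Median log2 ratio of 12 gene lists (y axis) in macrophage-like cells, with age (left; circles control mice, squares KAP mice) and between genotypes (right; circles young, squares aged), for both clusters without the 6 deepest cells (orange) and for cluster 0 alone (blue). With age the immediate early list lies at -1.17 and -1.49 over both clusters and at -0.28 and -0.26 in cluster 0, while between genotypes most medians lie near 0.

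Between the genotypes, the number of genes called in the class depended on the processing. In the young libraries 103 genes (3.86%) were called higher and 113 (4.24%) lower in KAP mice, and in the aged libraries 11 (0.412%) and 60 (2.25%). With the 6 deepest cells of aged control, 125 genes were called in the aged. At both ages 1 gene (0.0375%) was higher and 11 (0.412%) were lower. With each cell thinned to 2000 UMIs, 578 genes were called in the young, 400 in the aged and 65 at both ages, 31 of these higher and 34 lower. In cluster 0 alone 182, 406 and 34 were called, and at a floor of 200 CPM 16, 9 and 3. The list medians between genotypes were -0.00 and -0.08 for lysosomal genes, -0.03 and -0.26 for immediate early genes, -0.36 and -0.20 for chemokines and cytokines, and 0.12 and -0.24 for MHC class II, young first. The median of all genes was 0.03 and -0.01. Among functional lists with 10 or more genes at the floor, those of interferon response in the aged and of nuclear oxidative phosphorylation in the young lay furthest from 0. Of 14 interferon response genes 13 were below 0 in the aged, where 5 were past 2-fold lower and 0 higher, with medians of -0.15 and -0.59. Among the 5, Irf1, an interferon-regulated transcription factor, stood at 230, 218, 180.4 and 63.5 CPM, low in aged KAP alone. Of 73 nuclear genes of oxidative phosphorylation 58 were below 0 in the young, where 9 were past 2-fold lower and 1 higher, with medians of -0.43 and -0.06. Among genes of 200 CPM or more, 3 were lower at both ages, namely Gm42418, Kap and Fxyd2. Kap stood at 462, 4.95, 393 and 49.2 CPM in the macrophage-like cells but at 39870, 35798, 38647 and 49738 CPM in proximal tubule cells, and Fxyd2 is likewise a tubular gene. Gm42418 stood at 2076, 337, 2610 and 656 CPM here, at 2730, 1174, 3743 and 2512 CPM in proximal tubule cells and at 2056, 1210, 1648 and 587 CPM in lymphocytes, so it was lower in both KAP libraries in these other cells as well.

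Other genes passed 2-fold between the genotypes at 1 age only, which does not show that the ages differed. Mmp12, macrophage elastase, stood at 270, 832, 283 and 414 CPM, with a ratio of KAP to control of 1.63 (1.23 to 2.03) in the young and 0.55 (0.23 to 0.87) in the aged. Hmox1, which degrades haem, stood at 256, 574, 275 and 275 CPM, with ratios of 1.16 (0.74 to 1.6) and -0.00 (-0.36 to 0.35). Both were highest in young KAP. Mmp12 was above control at both ages, past 2-fold in the young. In the aged, Il1b had a ratio of -1.14 (-1.28 to -1.01) and Ccl12, a ligand of CCR2, of -1.54 (-2.12 to -0.99), after 0.21 (0.05 to 0.36) and -0.82 (-1.24 to -0.41) in the young. Ccl12 was thus below control at both ages, past 2-fold in the aged, and over all members it was past 2-fold at both. The differences between the ages were not tested.

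Tfeb and its family were read at low counts in these cells. Tfeb gave 6, 5, 14 and 13 UMIs in the macrophage-like class, or 19.96, 24.7, 28.1 and 26.6 CPM, and the KAP to control ratio was 0.31 (-1.74 to 2.29) in the young and -0.08 (-1.28 to 1.12) in the aged. A difference in Tfeb was not detectable at this depth. Tfe3 gave 32, 7, 33 and 26 UMIs, with ratios of KAP to control of -1.62 (-3.04 to -0.41) in the young and -0.31 (-1.11 to 0.47) in the aged, so it was called lower in young KAP, on 7 UMIs. Mitf gave 4, 1, 17 and 17 UMIs. Tfec gave 0, 1, 23 and 14 UMIs. After thinning to 2000 UMIs it was found in 0%, 2.8%, 3.5% and 9.3% of macrophage-like cells, against 0%, 2.8%, 26.3% and 16.7% unthinned. Thinned proximal tubule cells held it in 8%, 7.6%, 5.2% and 6%. At that depth the macrophage-like cells did not stand above the tubule cells beyond counting error, and no age difference in Tfec is read from these values.

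In monocyte-like cells the summed level of the MHC class II list was higher in both aged libraries. In the non-classical cells it was 5702, 1322, 13294 and 11230 CPM, with 5, 6, 3 and 1 of the 11 listed genes at 0, so no median ratio is given. In the classical cells it was 4434, 4252, 8349 and 9606 CPM. Cd74 and H2-Aa are given as examples chosen after their values were seen. In non-classical monocyte-like cells Cd74 stood at 2247, 191, 6698 and 4540 CPM, with UMIs in 5 of 10, 7 of 19, 18 of 26 and 30 of 42 cells. H2-Aa, a class II chain, stood at 1208, 0, 1972 and 1981 CPM there, in 2, 0, 8 and 13 cells. The young KAP cells were the lowest, and the young control value rested on 2 cells. In classical monocyte-like cells Cd74 stood at 1859, 1474, 3865 and 4186 CPM, in 10 of 21, 3 of 6, 16 of 17 and 17 of 21 cells, and H2-Aa at 307, 255, 898 and 1267 CPM. Both aged libraries were above both young ones for Cd74 and H2-Aa in the classical cells. Ace, the angiotensin-converting enzyme that marks the non-classical cells, stood at 702, 763, 639 and 536 CPM in them. C1qa was found in 0, 0, 1 and 1 of the non-classical cells. In proximal tubule cells Cd74 stood at 15.9, 26.6, 63.7 and 43.6 CPM, also higher in both aged libraries, at levels below those of the monocyte-like cells. The part of class II RNA from the macrophage-like and cDC2-like cells was not tested.

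The 6 deepest aged control cells, all in cluster 8 and none marked by Scrublet, differed from the other 57 macrophage-like cells of that library. Timd4, a phosphatidylserine receptor of long-lived resident macrophages, gave 84 UMIs, found in 6 of 6 cells, and 0 in the other 57. Vsig4, the complement receptor CRIg, gave 525 UMIs against 55, and 0 UMIs in all barcodes of the other 3 libraries. Cd5l gave 460 UMIs against 60 and Folr2, a folate receptor, 98 against 4. Cdh5, an endothelial cadherin, gave 59 UMIs in 6 of 6 cells against 2 in the others. C1qa was at 3191 CPM in the 6 cells, and Adgre1 at 563 CPM.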

How the data were processed

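Single-cell RNA sequencing of renal cortex gave 4 libraries, 1 per condition. Per the study's methods and the submitters' processing notes, the authors aligned reads to mm10 and counted UMIs with Cell Ranger 6.0.0, then removed background RNA with SoupX; Seurat 4.4.0 is also named. The annotation used was not given in the sources used here. Deposited values are whole UMI counts per gene and barcode. In the order of the report, 2.90%, 12.5%, 9.41% and 12.9% of the entries are written out as 0. They were taken as counts after that correction, which the files themselves do not state, and residual background can differ between libraries.

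Members were found by the rule stated in the report, and the members, gene lists and marker lists were chosen with earlier results of these data known. UMIs were summed per library over the members or a class and divided by their total (CPM). Log2 ratios carry exact conditional binomial 95% intervals, levels exact Poisson intervals and shares exact Clopper-Pearson intervals. No test was run, since each condition was 1 library and a model with age and genotype as separate terms would leave 1 residual degree of freedom. Genes with a mean of 50 CPM or more over the 4 libraries were compared. Members were clustered with scanpy 1.11.5 and igraph 0.11.9 (2000 variable genes, 30 components, 15 neighbours, Leiden resolution 0.8). Doublets were marked with Scrublet per library and kept. Intervals came from scipy 1.17.1 and figures from matplotlib 3.10.9, with numpy 2.4.6 and pandas 2.3.3 under Python 3.11.15. The code for log2 ratios and their intervals was tested on simulated counts, and the other steps were not.

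Named genes were the rule's genes and markers, those with the largest change in the weaker of 2 pairs (12 each way for members, the same at 200 CPM or more for macrophage-like cells; 8 each way within an age), the most abundant and the repeatedly called genes of each list, and Tfeb, Tfe3, Mitf, Tfec and Kap. Genes at least 4 times as high in non-member barcodes were set apart as possible background. Genes named in clusters, in monocyte-like cells and in the deepest cells, and Il1b, Trem2, Gpnmb, Adgre1 and Mertk, were chosen after their values were seen. Some genes are not reported here.

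Alternatives were other filters, doublets left out, CPM averaged over cells, thinning, other floors, centring, other resolutions and other definitions of the macrophage-like class. Those on that class, and leaving out the mixed clusters, were added after seeing the data.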

Additional observations from a re-analysis of the deposited data

How the results depend on the processing

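The larger share in both aged libraries was kept under each alternative run. The share in young KAP was 1.02% with at least 1000 genes and 0.993% with at least 10 UMIs of the rule's genes, and that in aged KAP 1.80% with doublets left out. Without members that carry markers of other cell types the shares were 0.776%, 0.908%, 1.15% and 1.29%, in the order of the report. Counts of genes past 2-fold over all members moved further. At a floor of 20 CPM they were 931 and 551 with age (control mice, then KAP mice), 300 and 528 with genotype (young, then aged), 301 with age in both genotypes and 63 with genotype at both ages. With CPM averaged over cells they were 185 with age in control mice, 129 and 63 with genotype, 82 with age in both and 7 with genotype at both ages. Thinned to 2000 UMIs, they were 360 with age in KAP mice, 278 with genotype in the young and 78 with age in both. In the macrophage-like class alone, with its deepest cells, they were 518 with age in KAP mice, 231 and 125 with genotype and 278 with age in both. Without the mixed clusters they were 245 with age in control mice, 57 with genotype in the aged and 11 at both ages, and without members with other markers 126 and 87 with genotype and 7 at both ages. The causes were not tested.

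Within the macrophage-like class without its deepest cells the counts moved as follows. With the deepest cells 125 were called with genotype in the aged, and with 10 or more C1q UMIs 120. With CPM averaged over cells 126 were called with genotype in the aged and 20 at both ages. Thinned, they were 805 with age in KAP mice, 578 and 400 with genotype and 65 at both ages. At a floor of 200 CPM they were 103 and 104 with age, 16 and 9 with genotype, 69 with age in both genotypes and 3 with genotype at both ages. In cluster 0 alone they were 275 with age in control mice, 406 with genotype in the aged, 59 with age in both genotypes and 34 with genotype at both ages. Without doublets 123 were called with genotype in the aged and 19 at both ages. The causes were not tested.

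Not every called log2 ratio of the macrophage-like class was followed under the alternatives. Among those followed, the ones that changed sign did so in cluster 0 alone. With age in control mice these were Blvrb -0.85, Ccl12 0.15, Cd14 0.13, Ctsb -0.15, Gadd45b 0.067, Lgals1 -0.18, Plin2 -0.066, Pltp -1.15 and Socs3 0.33, and Slc40a1, which went from 23.3 CPM in the young to 0 in the aged cells. With age in KAP mice they were Cd300a -0.15, Ctsb -0.98, Ctsd -1.26, Gngt2 -0.0030, Ier2 0.019, Lpl -1.24, Nfkbia 0.22, Pltp -1.73, Psap -0.16, Sdc3 -0.73, Slc40a1 -2.26, Tgfb1 -0.85, Trf -0.50, Vcam1 -3.26 and Zfp36 0.070, and Acp5, which went from 34.6 CPM to 0. With the deepest cells Ccl2 with age in control mice was -1.25 in place of -2.64 and Lgals1 2.18 in place of 1.22. Averaged over cells Ccl3 was -1.09 and Ccl4 -1.28 with age in control mice, and after thinning Ccl3 was -1.54 with age in KAP mice. Without doublets Ccl3 was -3.17 and Ccl4 -3.75 with age in KAP mice. Centring on the median of all genes shifted the ratios by less than the 2-fold threshold, so it could turn no called ratio, and its effect on the calls is given in the report. At resolution 0.4 the 49 cDC2-like cells joined the classical monocyte-like ones and no cluster was non-classical monocyte-like, 90 of those 97 cells lying in clusters mixed with other cell types. At 1.2, 122 of the 222 macrophage-like cells were in unnamed clusters, which left 12, 3, 41 and 42 macrophage-like cells. Each condition is 1 pooled library, so differences between mice, digestion and library cannot be told apart from age or genotype. No paired fit was run. The age pair of each genotype and the genotype pair of each age are given side by side.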
